A study of Mus musculus with 6 samples.

Results

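Notch signalling was examined through 10 genes of the pathway, comprising the receptor genes *Notch1*, *Notch2*, *Notch3* and *Notch4*, the ligand genes *Jag1*, *Jag2* and *Dll1*, and the target genes *Hes1*, *Hey1* and *Hey2*. These were chosen by name, with earlier results of these data known. All 10 were found by their Ensembl identifier among the 22032 genes listed. RNA-seq had been performed on chondrocytes sorted from mouse knee cartilage, with 3 embryonic and 3 adult samples. The study places the embryos at E16.5, a stage the labels write as 16.5 weeks, and the adults are 2 month old male B6 mice. By the methods, the mouse cells lacked CD31, CD45, Ter119 and ALP (alkaline phosphatase) on their surface and carried BMPR1B, a bone morphogenetic protein receptor. No treatment or altered allele is named for either stage. The sex of the embryos and the number of animals behind each sample are not given in the sources used here, so p-values measure the spread between these samples.

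Notch receptors are membrane proteins that are activated by ligands on neighbouring cells. Ligand binding exposes the receptor to a metalloprotease and then to gamma-secretase, which releases an intracellular domain that travels to the nucleus. There it joins the DNA-binding protein RBPJ and a Mastermind coactivator and switches on genes such as *Hes1* and *Hey1*, which themselves encode basic helix-loop-helix repressors. In the growing limb, Notch activity is known to hold back the differentiation of mesenchymal progenitors into chondrocytes and to influence hypertrophy in the growth plate, and Notch1 has been used as a marker of cells at the articular surface.

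Levels are given as TPM (transcript abundance corrected for transcript length and scaled to a fixed total per sample), so that genes can be compared within a sample. TPM keeps no sequencing depth, and the counting error of a level is unknown. A 0 was treated with caution, because 6 values of 0 across all genes stood beside 2 samples of the same stage at 20 TPM or more. Genes listed at 0 in a sample are therefore given by sample, without a mean. Stage differences were tested with limma on log2(TPM + 1) over the 13125 genes averaging 1 TPM or more, and a gene was called at a Benjamini-Hochberg adjusted p under 0.05 over all of them. The stages differed widely at this threshold, with 45.3% of tested genes called (23.9% as higher in adults and 21.4% as lower). Over all tested genes the log2 fold change had a median of 0.16, and scaling by the median of ratios brought it to 0.03.

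The cartilage label was checked against marker genes. Counts of called markers stand beside the 23.9% of all tested genes called higher in adults and 21.4% called lower. Of the 11 chondrocyte markers, 4 were higher and 6 lower in adults, with *Col2a1*, *Acan* and *Sox9* at 392 TPM or more in every sample. Their sum went from between 22163 and 23885 TPM before birth to between 35113 and 37496 TPM, through *Prg4* (lubricin) alone, without which it went down to between 9520 and 12562 TPM from between 21969 and 23723 TPM. Markers of other cells also differed between the stages. The 6 tendon and fibroblast markers summed to 5477 to 6647 TPM in the embryonic and 447 to 935 TPM in the adult samples, and 4 of the 6 fell. The 9 mural cell markers summed to 361 to 385 TPM and 181 to 197 TPM, with 5 of 7 tested lower and 1 (*Pdgfrb*) higher. For the 11 endothelial markers, of which 2 of 6 tested were lower, the sums of 84.9 to 107 TPM and 29.1 to 43.2 TPM were mostly *Erg*, and without it the stages overlapped at 13.7 to 48.0 TPM and 7.83 to 19.4 TPM. The 8 leukocyte markers went from between 6.10 and 14.7 TPM to between 20.4 and 90.8 TPM, with 2 of 4 tested higher, and overlapped without *Cd68*. Osteoblast markers also went up in sum, from between 65.4 and 92.5 TPM to between 303 and 461 TPM. Without *Ibsp* the sums were 60.4 to 65.8 TPM and 67.4 to 153 TPM. Of the 7 tested, 3 were higher and 1 (*Dmp1*) lower, and *Alpl*, which encodes the ALP of the sort, rose. The 6 muscle markers summed to 47.1 to 64.2 TPM and 1.79 to 8.83 TPM, a difference carried by *Des*, the 1 of 4 tested that was lower, and without it the sums overlapped. Of the called markers, *Des*, *Tnmd*, *Tek*, *Acta2* and *Abcc9* averaged under 1 TPM in the adult samples and passed the filter through the embryonic ones. *Bglap* and *Itgam* averaged under 1 TPM in the embryonic samples and passed it through the adult ones. Sums of the 5 erythroid markers overlapped, and those of the 3 skin markers were under 1 TPM in every sample. The part of these cells in the stage differences given here was not tested. In bulk samples such as these, fewer cells of a type and less RNA per cell cannot be told apart.

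Of the 10 Notch genes, 8 passed the filter on low values. The adult samples had lower levels of *Notch1*, *Notch3*, *Jag1*, *Hes1* and *Hey1*, while *Notch2*, *Notch4* and *Dll1* did not pass the threshold. No Notch gene rose in the adult samples. Of the 8 tested Notch genes 5 were called lower, where 21.4% of all tested genes were. Among these, *Notch3* passed the filter through the embryonic samples alone. As the genes were chosen with earlier results of these data known, this count describes them and is not a test. The same 5 of the 8 had adult values that all lay below the embryonic ones, a pattern found in 25.9% of all tested genes. No Notch gene had all adult values above the embryonic ones, a pattern found in 30.7%. *Jag2* and *Hey2* averaged less than 1 TPM, went untested and are left out of the counts over tested genes.

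**Figure D1:**
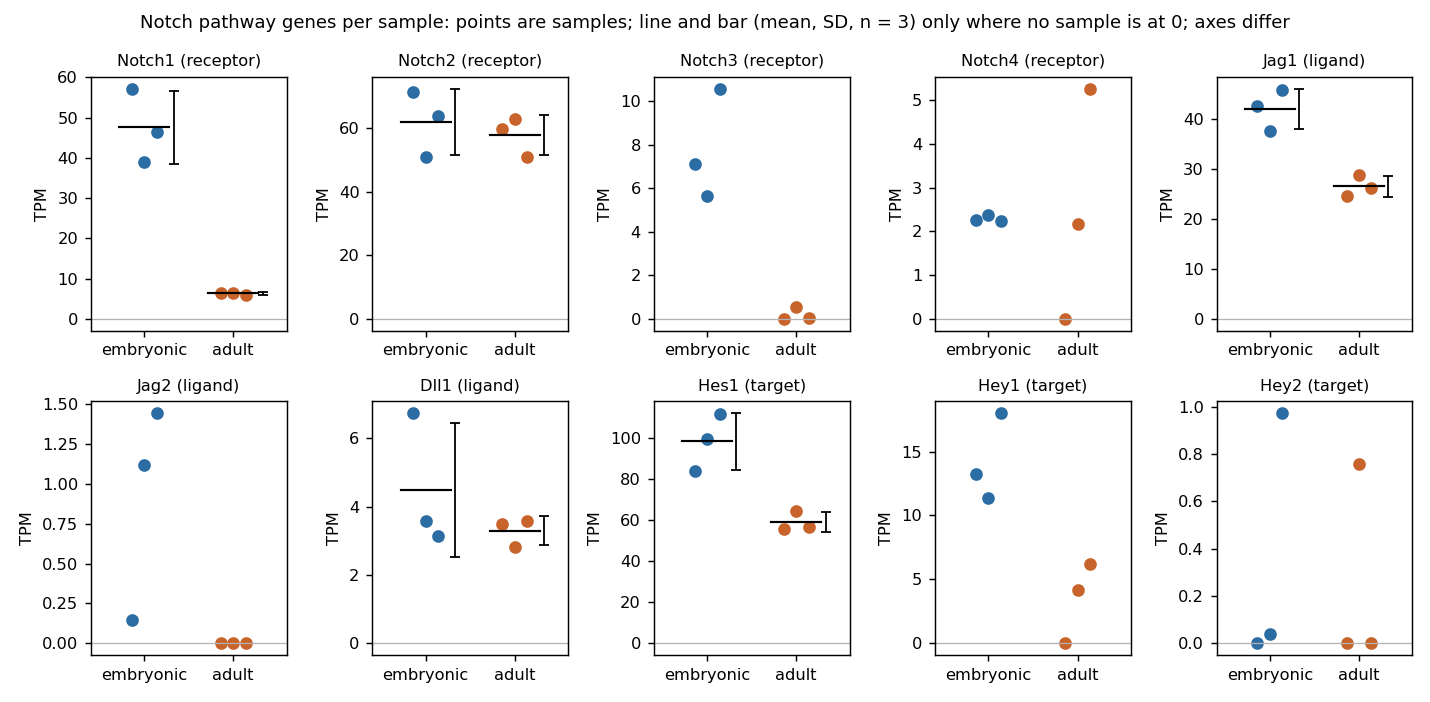
TPM (vertical axes from about 0, each with its own scale) of the 10 Notch genes in the 3 embryonic and 3 adult samples, with the mean and SD where no sample was at 0. *Notch1* separates the stages, at 39.1 TPM or more in every embryonic sample and 6.56 TPM or less in every adult sample, while the values of *Notch2* overlap.

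Among the receptors, *Notch1* fell while *Notch2* did not pass the threshold. The genes lie at chr2:26457903-26516663 (minus strand) and chr3:98013527-98150361 (plus strand) of GRCm38, each with 34 exons in GENCODE M21. Other annotated genes overlap exons of *Notch1*, *Notch2*, *Notch3* and *Dll1*, and none of these neighbours is among the genes listed. The methods name no step that marks strand for the mouse libraries, so reads of such neighbours may not have been told apart. *Notch1* was at 57.2, 39.1 and 46.5 TPM across the embryonic samples, against 6.49, 6.56 and 5.99 TPM across the adult ones. Every adult value was low and the adult values lay close together, so the mean level went from 47.6 ± 9.09 TPM (SD, n = 3) to 6.35 ± 0.315 TPM (SD, n = 3), a 7.5-fold difference. On the log2(TPM + 1) scale *Notch1* fell by 2.71 (standard error 0.250, limma adjusted p = 6.5e-05). It remained called in each of the 15 alternative analyses, and its change lay between -2.87 and -2.57.

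*Notch2* was at 71.5, 50.8 and 63.9 TPM across the embryonic samples, against 59.9, 63.0 and 50.9 TPM across the adult ones. The stages overlapped and no sample stood apart, with means of 62.1 ± 10.4 TPM (SD, n = 3) and 57.9 ± 6.30 TPM (SD, n = 3). The log2 fold change was -0.09 with a 95% confidence interval of -0.50 to 0.32 (limma adjusted p = 0.707), which leaves room for a moderate change in either direction. The 250 bases before the RefSeq start of each of these genes are shown because *Notch1* passed the threshold and its paralog did not. They are taken from RefSeq on GRCm38.p6, run 5′ to 3′ on the gene's strand, and have each CpG in capitals.
Notch1: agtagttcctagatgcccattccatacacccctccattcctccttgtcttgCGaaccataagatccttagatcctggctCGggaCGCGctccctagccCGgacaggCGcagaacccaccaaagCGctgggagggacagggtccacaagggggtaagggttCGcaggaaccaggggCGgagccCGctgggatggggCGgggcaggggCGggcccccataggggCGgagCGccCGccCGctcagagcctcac
Notch2: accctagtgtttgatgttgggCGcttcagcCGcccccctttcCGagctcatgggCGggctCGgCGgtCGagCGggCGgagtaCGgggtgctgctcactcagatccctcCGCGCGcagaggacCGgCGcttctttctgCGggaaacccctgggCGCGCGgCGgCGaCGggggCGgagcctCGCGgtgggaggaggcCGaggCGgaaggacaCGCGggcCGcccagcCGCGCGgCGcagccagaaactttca

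The *Notch1* stretch lies on the minus strand at chr2:26503823-26504072 and the *Notch2* stretch on the plus strand at chr3:98013288-98013537. The former held 16 CpG and the latter 34, where the median of 32851 mouse promoter windows of this length was 6. GC content was 66.0% and 72.0%. The *Notch1* stretch lies inside the GENCODE gene span given above, since the RefSeq start used here falls within that span. The *Notch2* stretch ends just inside the span of its gene. Among the other receptors, the window of *Notch3* held 17 CpG and that of *Notch4* held 4. Windows were found for 8 of the 10 Notch genes, all but *Hes1* and *Hey1*. The letters TGGGAA, the core of the RBPJ recognition sequence, were searched on both strands, and of the 8 genes *Hey2* alone had a match, 207 bases before its start. The same letters occurred in 21.6% of all windows. A match of letters is a description of the sequence and not a measured binding site.

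*Notch3*, a receptor best known from vascular smooth muscle and pericytes, was lower than *Notch1* and *Notch2* at both stages. It was at 7.13, 5.65 and 10.6 TPM across the embryonic samples, against 0, 0.538 and 0.0663 TPM across the adult ones. The adult samples were all under 1 TPM, so the gene passed the filter through the embryonic samples alone. It fell by 2.86 on the log2(TPM + 1) scale (standard error 0.456, limma adjusted p = 0.00122) and remained called in the 14 alternatives in which it was tested. The levels of the mural markers *Kcnj8* and *Rgs5* are given beside it. *Kcnj8* was at 0.931, 1.68 and 1.29 TPM across the embryonic samples but at 0 in each adult one. It did not pass the filter on low values and was not tested. *Rgs5* was at 22.8, 26.5 and 28.6 TPM across the embryonic samples, against 8.25, 5.65 and 2.38 TPM across the adult ones. *Pdgfrb*, a pericyte receptor gene of the same list, went the other way, with a rise of 0.84 (limma adjusted p = 0.0107). The part of these cells in the fall of *Notch3* was not tested.

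*Notch4*, which is expressed mainly in endothelial cells, was the least abundant receptor in the embryonic samples, at 2.26, 2.38 and 2.23 TPM. The adult samples were spread from 0 in replicate 1 to 2.18 TPM in replicate 2 and 5.26 TPM in replicate 3, so the embryonic values lay within the adult range. Its log2 fold change of -0.28 had a 95% confidence interval of -1.79 to 1.23 (limma adjusted p = 0.75). The sign depended on adult replicate 1, without which the value was 0.44 (limma adjusted p = 0.486). The endothelial markers other than *Erg* overlapped between the stages in sum, and their part in the levels of *Notch4* was not tested.

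The receptors were then compared as shares of their own sum, which does not depend on the scaling between samples. The summed level of the 4 receptors went from 120 ± 20.3 TPM (SD, n = 3) in the embryonic samples to 67.0 ± 5.08 TPM (SD, n = 3) in the adult samples. *Notch1* made up 41.4%, 39.9% and 37.7% of it across the embryonic samples, compared with 9.78%, 9.08% and 9.63% across the adult samples. *Notch2* made up 51.8%, 51.9% and 51.9% across embryonic samples, compared with 90.2%, 87.2% and 81.8% across adult samples. The share of *Notch2* thus hardly varied among the embryonic samples, and it was above 80% in each adult sample. *Notch3* held 5.16% to 8.58% across embryonic samples, compared with 0% to 0.744% across adult samples, and *Notch4* 1.64% to 2.43% and 0% to 8.46%. An exact two-sided permutation test gave p = 0.1 for the sum and for the shares of *Notch1*, *Notch2* and *Notch3*, the smallest p that 3 samples against 3 allow, and p = 0.7 for *Notch4*. Adjusted over these 5 quantities the values were 0.125 and 0.7, so none could pass a threshold of 0.05.

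**Figure D2:**
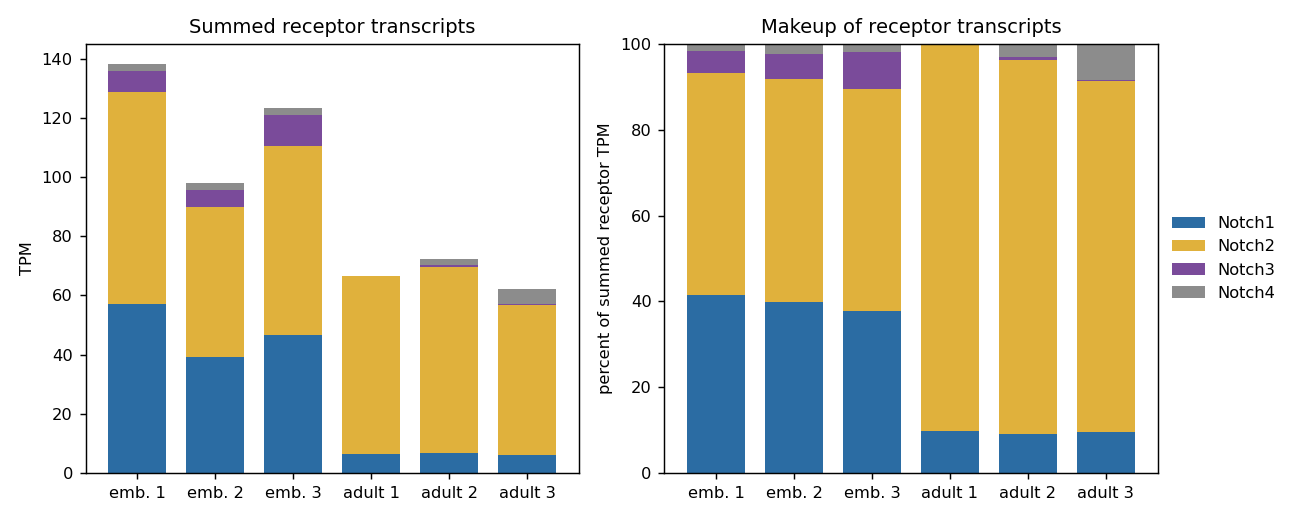
Summed TPM of the 4 receptor genes in each sample (left) and each receptor's percent of that sum (right), in stacked bars from 0. The *Notch1* share is 37.7% to 41.4% across embryonic samples, compared with 9.08% to 9.78% across adult samples, and *Notch2* takes up most of the remainder.

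The balance between relatives was also read as a ratio within each sample. *Notch2* was 1.25 to 1.37 times as abundant as *Notch1* across the embryonic samples, compared with 8.50 to 9.60 times as abundant across the adult samples, with no overlap. The mean log2 ratio, with 1 TPM added to each gene, went from 0.38 ± 0.07 (SD, n = 3) to 3.00 ± 0.10 (SD, n = 3). The log2 ratio of *Notch3* to *Notch2* was lower by 2.77 in the adult samples without overlap. That of *Notch3* to *Notch1* overlapped with 1 TPM added, but as a plain ratio it was 0.125 to 0.227 across embryonic samples and 0 to 0.0819 across adult samples, without overlap. Across the 7 ratios compared, the exact permutation test gave p = 0.1 for *Notch2* to *Notch1*, *Notch3* to *Notch2* and *Hey1* to *Hey2*, and 0.2 or more for the other 4, with an adjusted value of 0.233 or more for all 7. Most of the ratios with *Notch3*, *Jag2* or *Hey2* in them rest on values at or near 0 TPM, where the added 1 TPM sets their size.

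Of the ligands, *Jag1* was the leading gene at both stages. This membrane ligand is known for its part in skeletal and vascular development. The gene lies at chr2:137081456-137116644 on the minus strand. *Jag1* was at 42.7, 37.7 and 45.7 TPM across the embryonic samples, against 24.6, 28.8 and 26.3 TPM across the adult ones. All adult values lay below all embryonic ones, at a mean of 42.0 ± 4.08 TPM (SD, n = 3) against 26.5 ± 2.09 TPM (SD, n = 3), a 1.58-fold difference. It fell by 0.64 on the log2(TPM + 1) scale (standard error 0.187, limma adjusted p = 0.0216). The call was lost without embryonic replicate 1 (adjusted p = 0.0687) and without embryonic replicate 3 (adjusted p = 0.0797), with limma adjusted p between 0.00754 and 0.0797 over the alternatives.

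*Dll1*, a Delta-type ligand with known roles in somite and muscle formation, was at 6.74, 3.60 and 3.13 TPM across the embryonic samples, against 3.50, 2.81 and 3.58 TPM across the adult ones. Embryonic replicate 1 was the highest, and the other embryonic values lay close to the adult ones. Its log2 fold change of -0.30 had a 95% confidence interval of -1.26 to 0.65 (limma adjusted p = 0.583), and without embryonic replicate 1 it was -0.02.

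*Jag2* was near the lower limit of the data, at 0.150, 1.12 and 1.44 TPM before birth, and was listed at 0 in all 3 adult samples. No fold change is given for it. Together the 3 ligands summed to 42.4 to 50.3 TPM across the embryonic samples, compared with 28.1 to 31.6 TPM across the adult samples, and *Jag1* accounted for 86.1% to 91.1% of the sum in all 6.

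The target genes were led by *Hes1*, which was the most abundant of the 10 Notch genes by mean at both stages. *Hes1* encodes a repressor that many signals besides Notch can induce. It lies at chr16:30064384-30067796 on the plus strand. The level was at 84.1, 99.8 and 112 TPM across the embryonic samples, against 55.9, 64.7 and 56.7 TPM across the adult ones. No adult value reached the embryonic range, and the means of 98.5 ± 13.9 TPM (SD, n = 3) and 59.1 ± 4.88 TPM (SD, n = 3) differed 1.67-fold. *Hes1* fell by 0.72 on the log2(TPM + 1) scale (standard error 0.160, limma adjusted p = 0.00654) and remained called in each of the 15 alternatives. Its mean exceeded that of 90.7% of all listed genes across the embryonic samples, compared with 85.0% across the adult samples.

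*Hey1*, a repressor of the same family that Notch induces in many cell types, was at 13.3, 11.3 and 18.0 TPM in the embryonic samples. The adult samples were at 0, 4.14 and 6.24 TPM, all below the embryonic range but widely spread. It fell by 2.16 on the log2(TPM + 1) scale (standard error 0.692, limma adjusted p = 0.0317). Adult replicate 1, listed at 0, set much of this size, and without it the change was -1.29 (limma adjusted p = 0.0311). The call was lost without any single embryonic replicate, with a pseudocount of 0.1, without the filter and without limma's trend, and the adjusted p lay between 0.0185 and 0.108 over the alternatives. Adult replicate 1 also had the lowest level of the sort marker *Bmpr1b*, at 4.51 TPM against 18.5 and 13.4 TPM in the other adult samples and 16.4 to 20.3 TPM in the embryonic samples, and its part in the level of *Hey1* was not tested.

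*Hey2*, known from heart and arteries, was listed with 0, 0.0408 and 0.973 TPM across the embryonic samples, against 0, 0.756 and 0 TPM across the adult ones. The stages overlapped and it was not tested. *Hes1* therefore made up 85.5% to 89.8% of the summed *Hes1*, *Hey1* and *Hey2* level across the embryonic samples, compared with 90.1% to 100% across the adult samples. The log2 ratio of *Hey1* to *Hes1* overlapped between the stages (exact permutation p = 0.2), so an unequal fall of the 2 targets was not shown. Without the added 1 TPM the ratio was 0.114 to 0.161 across embryonic samples and 0 to 0.110 across adult samples, and did not overlap.

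**Figure D3:**
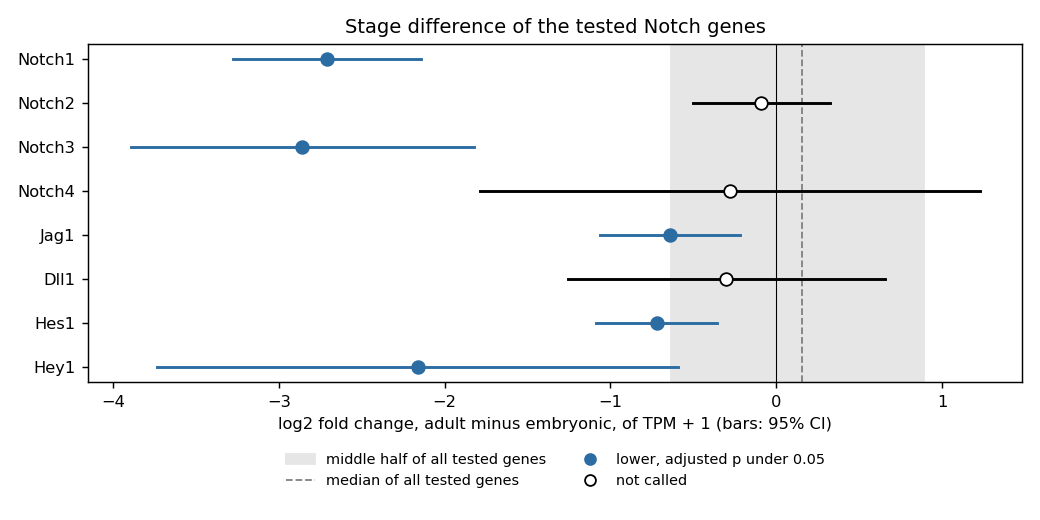
Log2 fold change (adult minus embryonic, of TPM + 1) of the 8 tested Notch genes, with 95% confidence intervals from limma, over the median (dashed) and middle range (grey, between the quartiles) of all tested genes. The filled points *Notch1*, *Notch3*, *Jag1*, *Hes1* and *Hey1* were called lower, and the intervals of *Notch2*, *Notch4* and *Dll1* include 0.

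Ordered by mean level, the embryonic samples ran from *Hes1* to *Notch2*, *Notch1*, *Jag1*, *Hey1*, *Notch3*, *Dll1*, *Notch4*, *Jag2* and *Hey2*. The ranges of *Notch2* and *Notch1* overlapped, as did those of *Notch1* and *Jag1*, of *Notch3* and *Dll1*, and of *Jag2* and *Hey2*. In the adult samples the order began with *Hes1*, *Notch2* and *Jag1*, and *Notch1* came after these. There the range of *Hes1* overlapped that of *Notch2*, while *Notch2* lay above *Jag1* and *Jag1* above *Notch1* without overlap. From *Notch1* downward each neighbouring pair overlapped in the adult samples. The position of *Notch1* among all listed genes went with it, from above 82.4% of genes in the embryonic samples to above 55.5% in the adult samples, whereas *Notch2* stood above 85.8% and 84.7%.

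The wider pathway was read from a list of 63 further genes, also chosen with earlier results of these data known. The filter on low values was passed by 55 of the 63. Of these, 10 rose and 17 fell with adulthood, beside shares of 23.9% and 21.4% over all tested genes. The median log2 fold change was -0.22, against 0.16 for all tested genes. Of the 27 called genes, 22 were called in all alternatives in which they were tested.

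Among the other ligands, *Dlk1*, which encodes a Delta-like protein without the domain that activates Notch, had by far the highest level. It was at 5317, 5213 and 5212 TPM across the embryonic samples, against 7.43 to 15.5 TPM across the adult ones, a fall of 8.83 on the log2(TPM + 1) scale (limma adjusted p = 8.8e-08). It was thus more abundant than all 10 Notch genes at the embryonic stage. *Dll4*, an endothelial ligand, did not pass the threshold. It was at 3.49, 0.141 and 0.887 TPM across the embryonic samples, against 0, 0.0792 and 1.44 TPM across the adult ones, and its log2 fold change was -0.63 (limma adjusted p = 0.465). Single samples set this value, which was -0.09 without embryonic replicate 1, -1.08 without embryonic replicate 2 and -1.04 without adult replicate 3.

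Genes for enzymes that add sugars to the receptor were mixed. Of 7 tested, 2 were higher and 1 lower, where 23.9% and 21.4% of all tested genes were. *Poglut1*, which adds O-glucose, was at 15.9, 9.75 and 8.38 TPM across the embryonic samples, against 32.8, 26.1 and 33.1 TPM across the adult ones. It rose by 1.40 (limma adjusted p = 0.0047). *Xxylt1*, which extends that sugar with xylose, rose by 1.02 with an adjusted p of 0.0478 by limma that lay between 0.0356 and 0.142 over the alternatives, of which 10 lost the call. Of the analyses with a sample left out, it kept the call in the one without adult replicate 2. *Gxylt1*, which adds the first xylose, fell by 0.95 (limma adjusted p = 0.00889). *Lfng*, the Fringe enzyme that alters which ligands a receptor prefers, overlapped between the stages (log2 fold change 0.40, limma adjusted p = 0.528).

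Genes for proteases and gamma-secretase subunits were likewise divided, with 3 higher and 1 lower of 9 tested, beside 23.9% and 21.4% of all tested genes. *Adam10*, encoding the main protease of ligand-dependent cleavage, was at 51.9, 39.6 and 38.7 TPM across the embryonic samples, against 29.8, 26.9 and 26.1 TPM across the adult ones. It fell by 0.62 (limma adjusted p = 0.0302, between 0.0118 and 0.117 over the alternatives, 6 of which lost the call). These were the rescaling without the 20 highest genes and the analyses without any single embryonic replicate, without adult replicate 2 and without adult replicate 3. *Adam17*, a related protease, was at 27.9 to 34.1 TPM across the embryonic samples, against 84.5, 88.1 and 76.7 TPM across the adult ones, a rise of 1.44 (limma adjusted p = 2.2e-04).

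Within gamma-secretase, *Psen2* rose by 1.53 (limma adjusted p = 0.00391) and *Psenen* by 1.55 (limma adjusted p = 7.7e-04). The genes *Ncstn*, *Aph1a* and *Aph1b* of the same complex were not called. For *Ncstn* the log2 fold change was -0.39 (limma adjusted p = 0.126), with all adult values below the embryonic ones. *Psenen* was at 48.6, 39.8 and 35.5 TPM across the embryonic samples, against 148, 139 and 87.4 TPM across the adult ones.

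In the nucleus, *Rbpj* itself did not pass the threshold. It was at 72.4, 62.3 and 65.1 TPM across the embryonic samples, against 39.7, 44.9 and 69.6 TPM across the adult ones (log2 fold change -0.41, limma adjusted p = 0.162). Adult replicate 3 alone lay within the embryonic range, and without it the change was -0.64 (limma adjusted p = 0.018, against a highest value of 0.394 over the alternatives). The Mastermind coactivators diverged. *Maml1* was at 56.4, 49.5 and 60.9 TPM across the embryonic samples, against 23.0, 31.6 and 23.5 TPM across the adult ones and fell by 1.07 (limma adjusted p = 0.00271). *Maml2* was at 22.7, 20.5 and 19.9 TPM across the embryonic samples, against 60.1, 60.9 and 49.6 TPM across the adult ones and rose by 1.39 (limma adjusted p = 4.7e-04). The paralogous acetyltransferase genes *Kat2a* and *Kat2b* diverged in the same manner, with a rise of 1.57 and a fall of 1.18 (limma adjusted p = 0.00135 and 9.4e-04).

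Corepressor genes fell more often than they rose, with 7 lower and 1 higher of 12 tested, where 21.4% and 23.9% of all tested genes were lower and higher. Those lower included 3 of the Groucho family, which HES and HEY proteins recruit, namely *Tle1*, *Tle3* and *Tle4*, together with *Hdac1*, *Hdac2* and *Ctbp2*. *Tle4* was at 18.9 to 20.9 TPM across the embryonic samples, against 5.79, 11.9 and 4.91 TPM across the adult ones, a fall of 1.38 (limma adjusted p = 0.0125). *Spen*, which encodes a corepressor bound to RBPJ in the absence of Notch, rose by 1.28 (limma adjusted p = 5.5e-04).

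Among genes for ubiquitin ligases and endocytic adaptors, 2 were higher and 4 lower of 13 tested, beside 23.9% and 21.4% of all tested genes. *Neurl1b*, encoding a ligase that acts on ligands, averaged 1.53 ± 0.493 TPM (SD, n = 3) across the embryonic samples, compared with 9.61 ± 2.53 TPM (SD, n = 3) across the adult samples, a rise of 2.06 (limma adjusted p = 0.00366). *Mib2* rose by 1.10 (limma adjusted p = 0.00185), whereas for *Mib1*, the ligase on which ligand endocytosis chiefly depends, the log2 fold change was -0.22 (limma adjusted p = 0.23). *Numb*, an inhibitor of Notch, was at 210, 173 and 176 TPM across the embryonic samples, against 81.2, 108 and 134 TPM across the adult ones, a fall of 0.81 (limma adjusted p = 0.00854). *Dtx1*, *Dtx4* and *Neurl1a* were also called lower (limma adjusted p = 0.0426, 0.0273 and 0.0495), though the calls were lost in 9, 6 and 10 alternatives. Of the analyses with a sample left out, *Dtx1* kept its call without embryonic replicate 1, *Dtx4* without adult replicate 1 and *Neurl1a* without adult replicate 3.

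**Figure D4:**
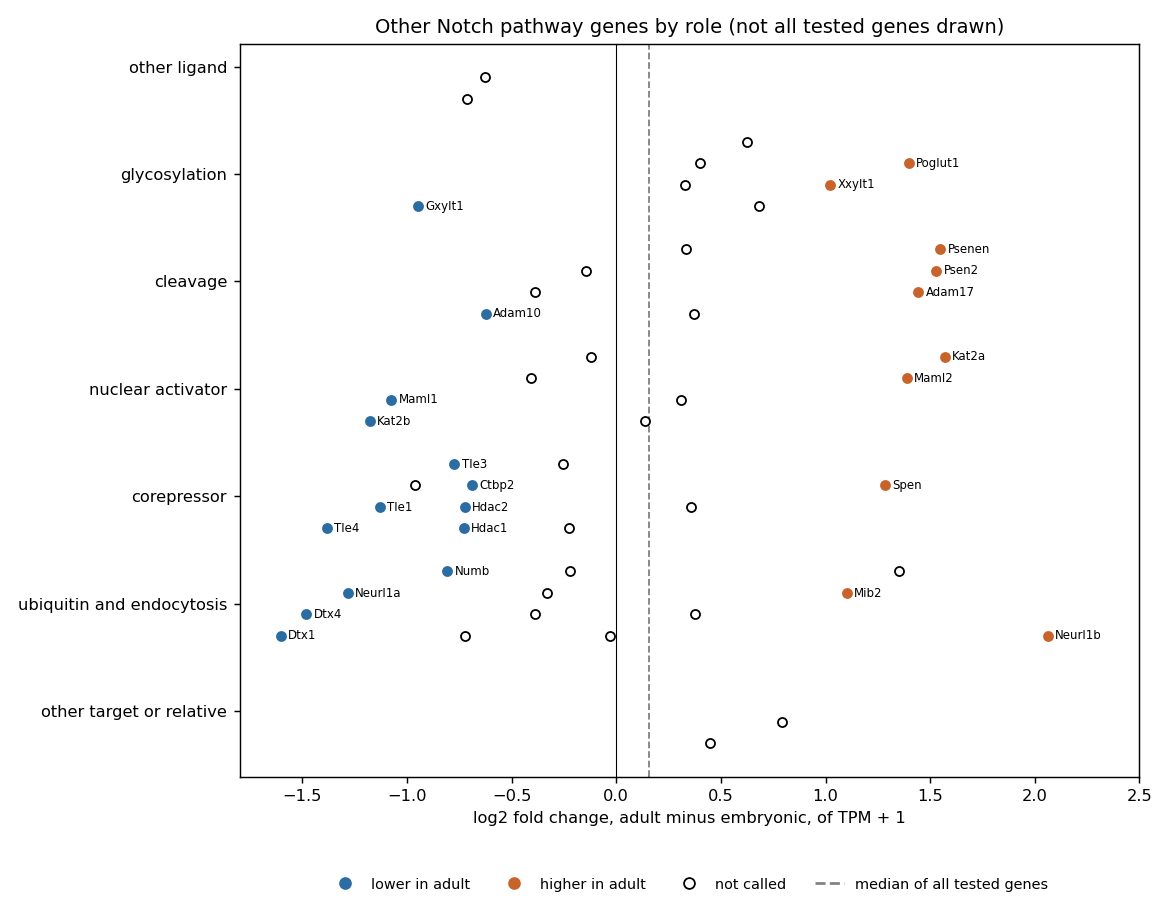
Log2 fold change (adult minus embryonic, of TPM + 1) of tested pathway genes, grouped by role, without *Dlk1*, *Heyl* and results not reported here. Filled points passed an adjusted p under 0.05, and corepressors lie mostly to the left of 0 while the other roles spread to both sides of it or hold no filled point.

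Of 7 other targets and relatives, 3 passed the filter, of which 1 fell and 2 were not called. Over all tested genes, 21.4% were lower and 23.9% higher. *Heyl*, a target that Notch induces in mural cells, reached 7.28, 14.4 and 18.6 TPM across the embryonic samples and was listed at 0 in all 3 adult samples. It was called lower (limma adjusted p = 3.2e-04), and no fold change is given for it. Like *Notch3*, it passed the filter through the embryonic samples alone. Of the 7 tested mural markers 5 were called lower, where 21.4% of all tested genes were, while *Pdgfrb* rose. Among those 5, *Acta2* and *Abcc9* averaged 0.750 and 0.198 TPM across the adult samples, so they too passed the filter through the embryonic samples. The part of mural cells in the fall of *Heyl* was not tested. *Hes5*, a classical target in neural progenitors, was at 2.67 TPM in embryonic replicate 2 and listed at 0 in the other 5 samples. *Nrarp*, a feedback inhibitor that Notch induces, was listed at 0 in all 6 samples.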

How the data were processed

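Chondrocytes from mouse knee cartilage were sequenced in 3 embryonic and 3 adult samples, each of which is a column of the deposited table. The authors mapped single-end reads to GRCm38 with RefSeq annotations, quantified genes with RSEM and deposited the values as log2(TPM + 1). The RSEM version is not given in the sources used here, and TPM keeps no depth. Library preparation is described in 2 ways, as a Kapa mRNA-Seq kit (labels) and as Nugen Ovation cDNA with a Kapa LTP library (methods).

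Symbols and positions came from GENCODE M21 and matched 21902 of 22032 identifiers. Stages were compared with limma 3.58.1 in R 4.3.3 (lmFit, eBayes with a trend), pseudocount 1, keeping genes that averaged 1 TPM or more. EBSeq, named in the methods, was not used. Exact permutation tests over samples, figures and promoter searches used Python 3.11.15. The limma step was tested on simulated data. Genes, pathway roles and marker lists were chosen with earlier results of these data known. Named were the Notch genes, the fixed pathway genes and the 2 largest called changes of each role. *Adam17*, *Ncstn*, *Aph1a*, *Aph1b*, *Kat2b*, *Gxylt1*, *Mib2*, *Dtx4*, *Neurl1a*, other corepressors and single markers were named after their values were seen. Results for some pathway genes are counted but not reported here. Alternatives were a pseudocount of 0.1, other filters, 3 other scalings, other eBayes settings, a replicate block and each sample left out. Marker sums were also taken without the gene of highest level in each list, an alternative chosen after seeing the data.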

Additional observations from a re-analysis of the deposited data

How the results depend on the processing

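Over the 15 alternatives *Notch1* and *Hes1* kept their direction and their call, as did *Notch3* in the 14 in which it was tested. The number of Notch genes called lower was 5, lay between 3 and 5 with each sample left out in turn, and was 3 without embryonic replicate 1 and without embryonic replicate 3, where *Jag1* and *Hey1* lost their calls. No Notch gene was called higher in any of these. In the wider pathway 9 to 11 genes were called higher and 13 to 19 lower. With the replicate number as a block, 4 Notch genes were called lower, since *Jag1* had an adjusted p of 0.0515, and 15 pathway genes instead of 17. The sources used here do not say whether samples of the same number belong together. Deviations from the stage means correlated between -0.02 and 0.02 for every pair of samples of unlike stage. No sample correlated best with its own number. A correlation over all genes cannot show a link limited to some genes, so this does not decide the question.

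The genes that were not called changed sign in few settings. The log2 fold change of *Notch2* was 0.0054 without the 20 highest genes, and with each sample left out it lay between -0.2243 and 0.0172, the latter without embryonic replicate 1. That of *Notch4* lay between -0.88 (without adult replicate 3) and 0.44 (without adult replicate 1). That of *Lfng* lay between -0.0486 and 0.73, and was below 0 without embryonic replicate 1 and without adult replicate 1. The cause was not tested. With each sample left out, the *Notch4* share of receptor TPM changed by -0.45 to 3.78 percentage points, the former without adult replicate 3, and the log2 ratio of *Notch3* to *Notch1* by -0.32 to 0.0772, the latter without embryonic replicate 3. A pseudocount of 0.1 moved the stage difference of the log2 ratio to 2.78 for *Notch2* to *Notch1*, -2.25 for *Notch3* to *Notch1*, -5.03 for *Notch3* to *Notch2*, 2.30 for *Jag1* to *Jag2* and -2.61 for *Hey1* to *Hes1*, which follows from the smaller number added to values near 0. TPM without counts gives no limit of detection, so a gene listed at 0 is not shown to be absent.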
